A study of Rattus norvegicus with 16 samples.

Results

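Hcn2, Hcn3 and Hcn4 encode pore-forming subunits of the hyperpolarization-activated, cyclic nucleotide-gated (HCN) cation channels, and each was represented by 1 Affy_ID (a set of probes for 1 transcript) on the rat genome array. They were chosen as every Affy_ID whose only listed gene symbol was one of these 3 names, which gave 3 Affy_IDs of the 31042 tested, or 3 of 14217 gene symbols. Hcn2 is 1370966_at, Hcn3 is 1369416_at and Hcn4 is 1387997_at. Hcn2 was measured well above the lowest values of the arrays, Hcn3 lay low and Hcn4 lay at the bottom. None of the 3 genes passed the test after nerve injury at either age. In the control ganglia (sham and contralateral) every adult Hcn2 value lay above every young one, an order that 3.54% of all Affy_IDs showed. This difference did not pass the test either.

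HCN channels open when the membrane becomes more negative and then let sodium and potassium through, which draws the membrane back toward the firing threshold. Binding of cyclic AMP to a domain at the carboxyl end of the channel eases opening, so receptors that raise or lower cyclic AMP tune this current. The current paces the heart beat and rhythmic neurons. In mice, Hcn2 in nociceptors takes part in repetitive firing and in neuropathic pain. Hcn4, which responds strongly to cyclic AMP, is the main subunit of the sinoatrial node, and Hcn3 responds little to cyclic AMP.

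Messenger RNA was measured in L4 and L5 dorsal root ganglia (DRG) of Sprague-Dawley rats 7 days after spared nerve injury (SNI) or sham surgery, on 16 arrays. In SNI the common peroneal and tibial branches of the sciatic nerve are tied and cut and the sural branch is left whole. Both DRG of the injured side and those of the other side (contralateral) were collected. The groups were adult SNI, adult contralateral and adult sham (3 arrays each), from male rats 2 months of age, and young SNI (2 arrays), young contralateral (2 arrays) and young sham (3 arrays), from rats operated on at 10 days and collected at 17 days. One array held RNA pooled from 3 adult rats (6 DRG) or 4 young rats (8 DRG), so the spread given below is between pools and not between animals. The values are log2 signals after GC-RMA, in which probe background is estimated from base content, and they ran from 0.38 to 15.79.

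The sensory neuron genes were high in every array, with a mean over 8 markers such as Tubb3 and Prph of 11.23 to 12.44. All 6 markers of injured neurons, such as Atf3 and Sprr1a, were higher in adult SNI than in the mean of both adult controls, and their mean was 11.00 to 11.36 in adult SNI and 4.58 to 6.41 in adult controls. It was 7.50 and 10.03 in young SNI and 4.48 to 10.92 in young controls, and 0 of the 6 passed there. The young control ganglia were thus not all low in these genes, and young sham replicate 2, at 10.92, lay near adult SNI. All 6 had lower means in young SNI than in young sham (median log2 difference -0.36). All 6 had higher means in young SNI than in young contralateral (median 2.01). These genes thus did not set young SNI apart from young controls, which limits every young SNI difference given below. Young SNI replicate 2 stood apart, with a mean over 9 genes of central nervous tissue of 9.35, against 2.23 to 2.76 in the other 15 arrays, and the lowest mean over 8 nociceptor genes (8.11, against 9.24 to 9.96). Hcn2 and Hcn3 in young SNI are therefore given with and without it. In ganglia taken whole, fewer cells of a type and less RNA per cell cannot be told apart.

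Of the 3 genes, Hcn2 had a matched promoter in the RefSeq table of the rat build GRCr8. The 250 bases before its start, at chr7:10639458-10639707 on the minus strand, are shown because Hcn2 was the member with a measured signal in every array. The capitals mark GC boxes, searched as GGGCGG on both strands (CCGCCC on the other).
Hcn2 promoter: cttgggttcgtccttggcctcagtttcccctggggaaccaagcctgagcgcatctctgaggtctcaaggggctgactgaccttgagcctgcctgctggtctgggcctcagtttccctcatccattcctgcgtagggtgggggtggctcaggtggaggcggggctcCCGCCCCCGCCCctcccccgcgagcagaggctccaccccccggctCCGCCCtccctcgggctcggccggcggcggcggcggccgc
The stretch holds 3 GC boxes, of which a pair lie end to end, and its GC content was 71.6%. A GC box was found in 30.5% of 33469 promoters cut to the same length, and 7.41% held 3 or more. The letters TATAAA, searched on both strands, were not found here and were found in 12.9% of promoters. The arrays measured RNA and give no value for this stretch.

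Hcn2 had log2 values of 6.64, 7.70 and 6.80 in adult SNI, 6.96, 7.40 and 7.05 in adult contralateral, and 7.04, 7.53 and 7.13 in adult sham. The adult SNI arrays held both the highest and the lowest adult value, and they overlapped both controls. In young rats Hcn2 had 6.73 and 7.26 in SNI, 6.79 and 6.65 in contralateral, and 6.75, 6.70 and 6.64 in sham. One young SNI array lay among the controls and the other, replicate 2, lay above all of them. Over the 16 arrays the values spanned 6.64 to 7.70, and within an array 57.6% to 66.2% of all Affy_IDs lay below this gene.

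Hcn3 had 3.77, 3.87 and 4.29 in adult SNI, 3.97, 3.72 and 3.94 in adult contralateral, and 4.94, 3.91 and 3.82 in adult sham. It had 3.75 and 3.84 in young SNI, 3.82 and 3.88 in young contralateral, and 4.43, 3.85 and 3.88 in young sham. A value of 4 or more was reached in 3 of the 16 arrays, adult sham replicate 1, young sham replicate 1 and adult SNI replicate 3, and the other 13 lay between 3.72 and 3.97. Between 41.3% and 48.0% of all Affy_IDs in an array lay below Hcn3.

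Hcn4 had 1.66, 1.61 and 1.66 in adult SNI, 1.66, 1.65 and 1.69 in adult contralateral, and 1.63, 1.67 and 1.66 in adult sham. It had 1.65 and 1.66 in young SNI, 1.64 and 1.66 in young contralateral, and 1.62, 1.63 and 1.67 in young sham. All 16 values fell within 0.08 of each other, and at most 1.53% of the Affy_IDs of an array lay below them. At this floor of the signal a fall in Hcn4 RNA, or a rise too small to leave the floor, would not be detectable. The narrow spread therefore does not show a steady level. Levels of the 3 genes are not set against each other, since probes differ in how strongly they bind.

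**Figure D1:**
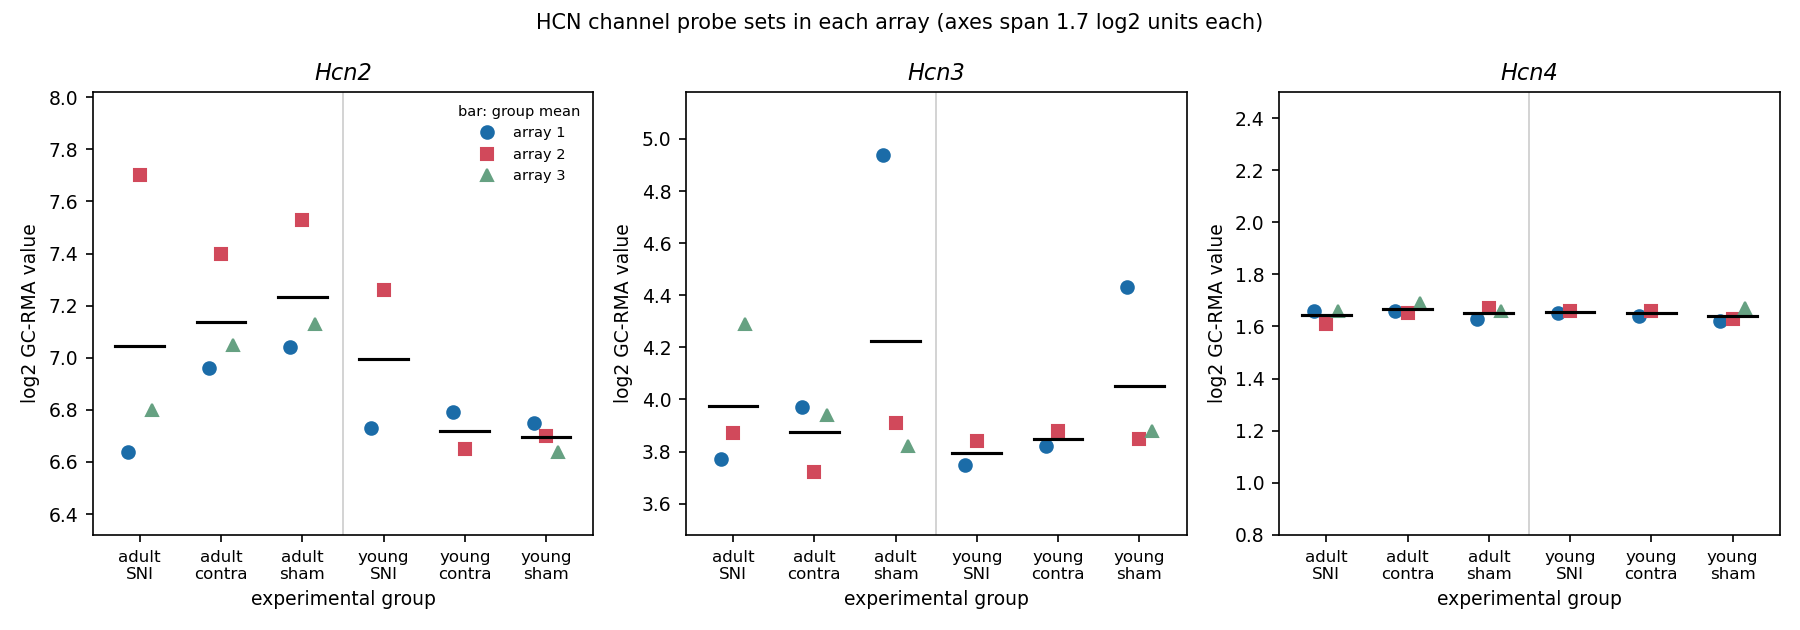
Log2 GC-RMA value (vertical axis) of Hcn2, Hcn3 and Hcn4 in each of the 16 arrays, by experimental group (horizontal axis), with 1 point an array and a bar at the group mean. Hcn2 lay at 6.64 to 7.70, with the 6 adult control arrays above the 5 young ones, an order that 3.54% of all Affy_IDs showed. Hcn3 lay mostly between 3.72 and 3.97, and Hcn4 lay at 1.61 to 1.69 in every array.

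The response to injury was asked of each gene by setting the injured side against each control at the same age, with limma across all Affy_IDs and p adjusted by Benjamini-Hochberg. A gene passed with an adjusted p under 0.05. In adults 0 of the 3 genes passed against sham, where 0.48% of all Affy_IDs did, 0 against contralateral, where 1.03% did, and 0 against the mean of both controls, where 1.28% did. In young rats 0 of the 3 passed against sham (0.0161% of all Affy_IDs), against contralateral (0.00966%) and against the mean of both (0.0226%). With so few Affy_IDs passing anywhere in young rats, 0 of 3 carries little information there.

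In adult SNI, Hcn2 averaged 7.05 ± 0.57 (SD, n = 3), against 7.14 ± 0.23 in contralateral and 7.23 ± 0.26 in sham (SD, n = 3 each). The log2 difference was -0.19 against sham (SE 0.25, 95% interval -0.74 to 0.37, limma adjusted p = 1.0) and -0.09 against contralateral (SE 0.25, 95% interval -0.64 to 0.46, limma adjusted p = 0.879). Both rested on single arrays. Without adult SNI replicate 2 the differences were -0.51 against sham and -0.42 against contralateral (adjusted p = 0.627 and 0.633), and without adult SNI replicate 1 they were 0.02 and 0.11. Between arrays with the same number, the adult SNI value minus the contralateral value was -0.32, 0.30 and -0.25.

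In young SNI, Hcn2 averaged 7.00 ± 0.37 (SD, n = 2), against 6.72 ± 0.10 in contralateral (SD, n = 2) and 6.70 ± 0.06 in sham (SD, n = 3). The log2 difference was 0.30 against sham (SE 0.28, 95% interval -0.32 to 0.92, limma adjusted p = 0.988) and 0.28 against contralateral (95% interval -0.40 to 0.95, limma adjusted p = 1.0). Without young SNI replicate 2, the array with the high central nervous tissue genes, the differences were 0.03 and 0.01, with the lone remaining array assumed to vary like the other groups. What part those genes' tissue had in the value of 7.26 was not tested.

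Hcn3 averaged 3.98 ± 0.28 in adult SNI, 3.88 ± 0.14 in adult contralateral and 4.22 ± 0.62 in adult sham (SD, n = 3 each). Its difference was -0.25 against sham (SE 0.27, 95% interval -0.83 to 0.34, limma adjusted p = 1.0) and 0.10 against contralateral (95% interval -0.49 to 0.69, limma adjusted p = 0.873). The first of these turned to 0.11 without adult sham replicate 1, the array at 4.94, and the second turned to -0.06 without adult SNI replicate 3, the array at 4.29. In young SNI the Hcn3 difference was -0.26 against sham (95% interval -0.91 to 0.40, limma adjusted p = 0.988) and -0.06 against contralateral (95% interval -0.77 to 0.66, limma adjusted p = 1.0). These were -0.30 and -0.10 without young SNI replicate 2, and the first was -0.07 without young sham replicate 1, the array at 4.43. For Hcn4 no difference in the 15 comparisons exceeded 0.03 in size.

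The difference in response between ages was the adult SNI difference minus the young one. For Hcn2 it was -0.49 against sham (SE 0.38, limma adjusted p = 0.897), -0.37 against contralateral (limma adjusted p = 0.799) and -0.43 against the mean of both controls (95% interval -1.17 to 0.32, limma adjusted p = 0.777). Against the mean of both it was -0.75 without adult SNI replicate 2 (adjusted p = 0.676) and -0.16 without young SNI replicate 2 (adjusted p = 0.985). For Hcn3 it was 0.08 against the mean of both (95% interval -0.70 to 0.87, limma adjusted p = 0.908), and 0.13 without young SNI replicate 2. Over all Affy_IDs 0.0773%, 0.0193% and 0.0966% passed in these 3 comparisons, and 0 of the 3 HCN genes did. Both control sides were also compared with each other. For Hcn2 the contralateral minus sham difference was -0.10 in adults and 0.02 in young rats (limma adjusted p = 0.982 and 1.0), and among all Affy_IDs 0% passed by limma at either age, with 625 in adults and 697 in young rats at an unadjusted p under 0.05.

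**Figure D2:**
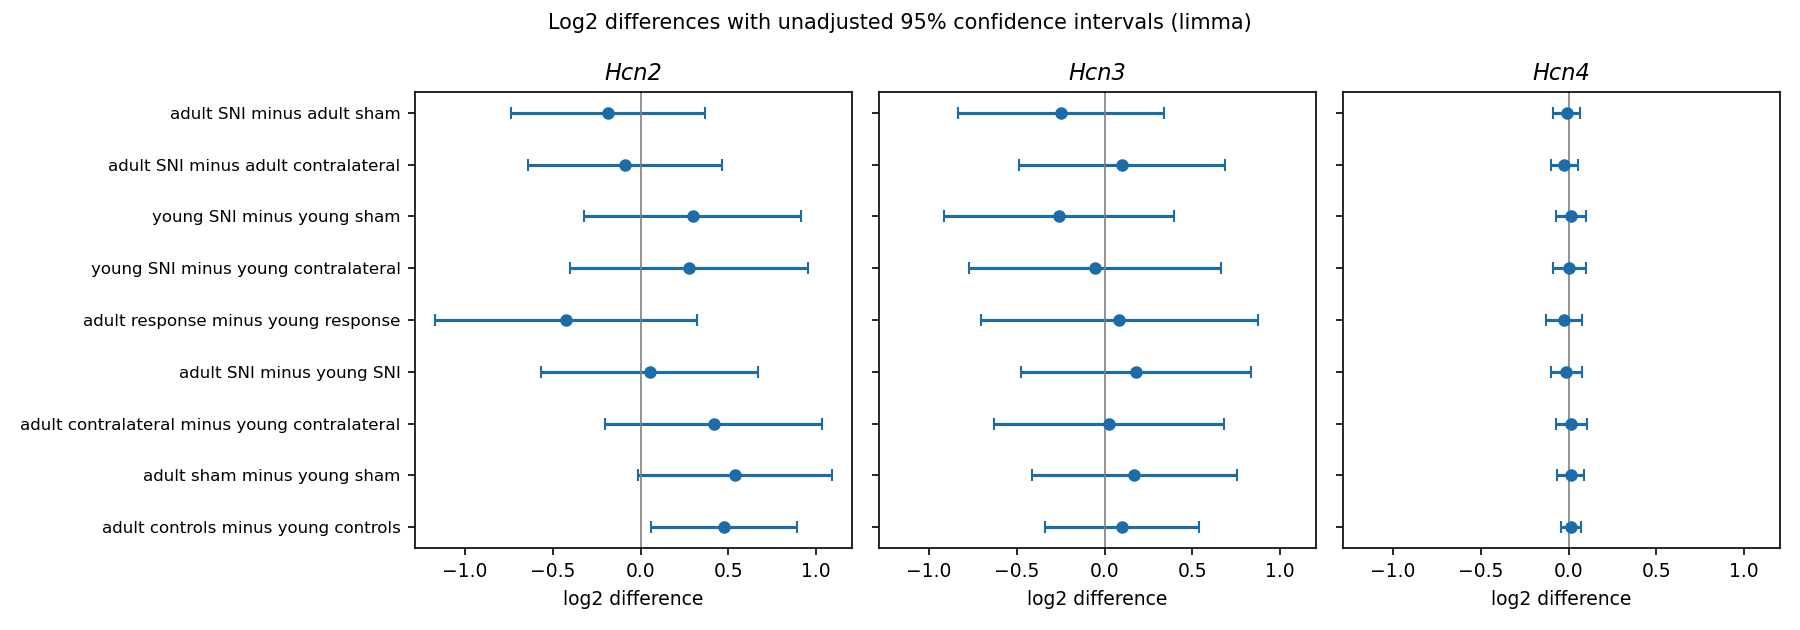
Log2 difference (horizontal axis) of Hcn2, Hcn3 and Hcn4 in SNI against control, between ages and in the response between ages (rows), with points at the limma estimate and bars for the 95% interval. The bar of Hcn2 in adult against young controls, at 0.48, is the one that does not reach 0, and the Hcn4 bars are short because its values lie at the floor.

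Age was compared within each surgical group. In the control ganglia Hcn2 ran from 6.96 to 7.53 in the 6 adult control arrays, and from 6.64 to 6.79 in the 5 young control arrays, so the 2 ages did not overlap. Among all Affy_IDs 3.54% showed the same order without overlap. The log2 difference between adult and young controls was 0.48 (SE 0.19, 95% interval 0.06 to 0.89), and its limma adjusted p was 0.205, while 4.36% of all Affy_IDs passed. It was 0.54 between the sham groups (95% interval -0.02 to 1.09, limma adjusted p = 0.426) and 0.42 between the contralateral groups (95% interval -0.20 to 1.03, limma adjusted p = 0.781), where 0.622% and 0.177% of Affy_IDs passed. Adult and young arrays did not overlap in either of these, an order that 7.55% of Affy_IDs showed between sham groups and 12.5% between contralateral groups.

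Between the injured groups the ages overlapped. Hcn2 in adult SNI (6.64 to 7.70) enclosed both young SNI values (6.73 and 7.26), and the log2 difference was 0.05 (95% interval -0.57 to 0.67, limma adjusted p = 0.992), in a comparison that 2.64% of Affy_IDs passed. Leaving out adult SNI replicate 2 gave -0.28, and leaving out young SNI replicate 2 gave 0.32. Ordered by mean, the groups ran adult sham, adult contralateral, adult SNI, young SNI, young contralateral and young sham. No neighbouring pair in this order differed beyond its spread, since the 95% interval of each such difference held 0. Hcn3 gave 0.10 between adult and young controls (95% interval -0.34 to 0.54, limma adjusted p = 0.778) and overlapped between ages. Over the 45 tests, 3 genes in 15 comparisons, 0 passed and 1 had an unadjusted p under 0.05, that of Hcn2 in adult against young controls, a comparison in which 17.8% of all Affy_IDs had one.

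The control arrays of the 2 ages were also compared in sex, injury genes and cell content. The adult rats were male, and Xist, transcribed from the inactive X chromosome of females, was 2.42 to 2.57 in adult controls and 2.35 to 11.87 in young controls. Hcn2 was 6.79 and 6.70 in the young control arrays with Xist at 2.35 and 2.36, and 6.65, 6.75 and 6.64 in those with high Xist. The part of sex in the Hcn2 difference was not tested. All 6 injured-neuron genes had lower means in adult controls, with a median log2 difference of -2.46 (0 passed, smallest limma adjusted p = 0.0597), and the list mean was 4.58 to 6.41 in adult and 4.48 to 10.92 in young controls. Hcn2 was 6.65 in the young control array with the lowest injured-neuron mean. Without young sham replicate 2 the difference in Hcn2 between the ages was 0.48 (adjusted p = 0.287). That fit still held young control arrays with injured-neuron means of 9.43, 8.99 and 7.18, so it does not remove the difference in these genes. The 7 muscle genes had a median log2 difference of -2.26 (0 passed, smallest limma adjusted p = 0.15). Their means were 5.31 to 12.57 in adult and 8.75 to 13.51 in young controls. The sensory neuron mean was 12.14 to 12.44 in adult and 12.07 to 12.40 in young controls, and the mean of 10 genes of large myelinated neurons was 11.62 to 11.88 in adult and 11.66 to 11.88 in young controls. The 5 genes of myelinating Schwann cells had a lower mean in adults, 11.37 to 12.44 against 12.57 to 13.09, and 2 of them passed (smallest limma adjusted p = 0.0343). The part of injury, muscle and Schwann cell genes in the Hcn2 difference was not tested.

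Among adults, the highest Hcn2 values were those of the arrays numbered 2. These 3 arrays had 7.40 to 7.70, and the other 6 adult arrays had 6.64 to 7.13. This order was noticed in the values and has no test, and 1.06% of all Affy_IDs showed it without overlap. The same arrays had the lowest means over 7 muscle genes among the adult arrays, 7.56 in SNI, 7.34 in contralateral and 5.31 in sham, against 8.41 to 12.57 in the other adult arrays. The part of muscle RNA in this order was not tested. With the array number as a block, the adult SNI difference in Hcn2 had an SE of 0.16 against contralateral and an adjusted p of 0.804.

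**Figure D3:**
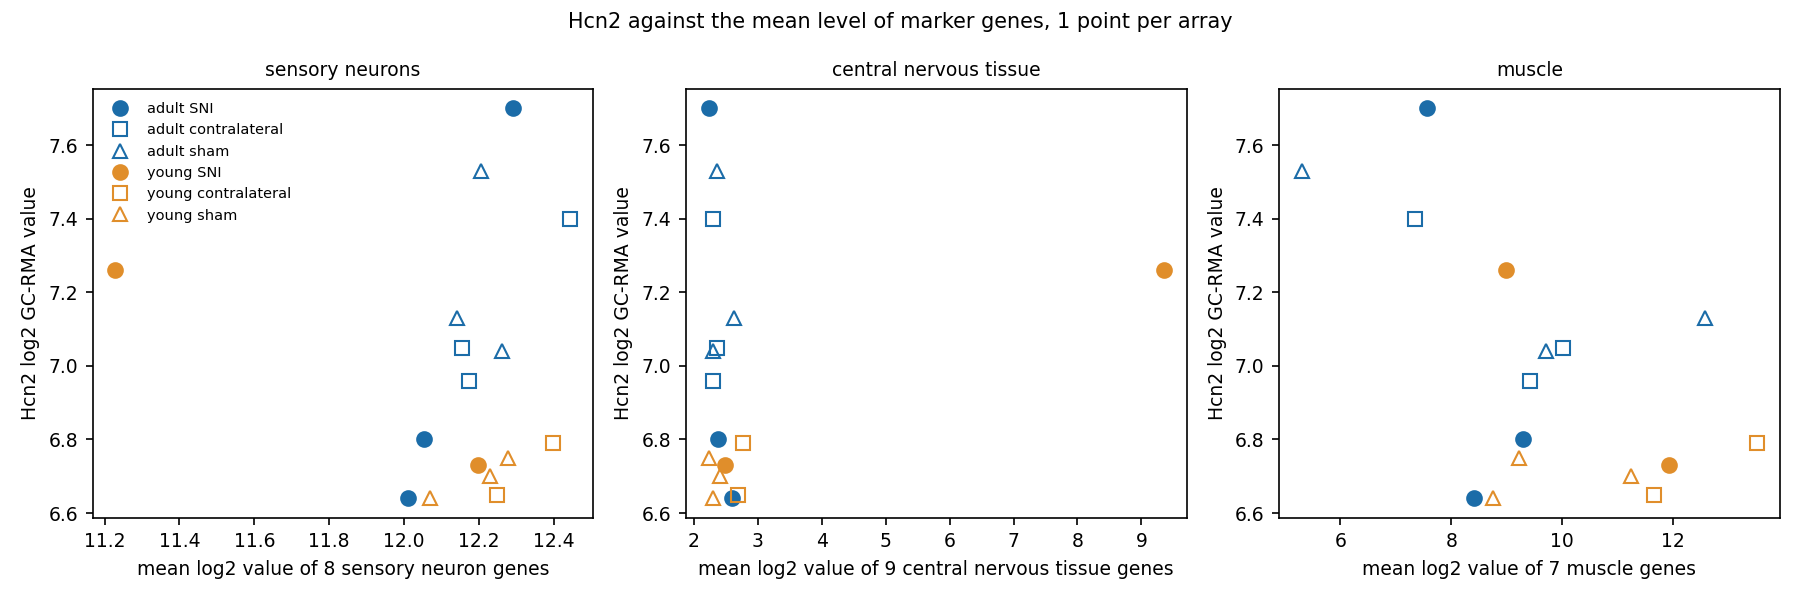
Hcn2 log2 GC-RMA value (vertical axes) against the mean log2 value of marker lists (horizontal axes), with 1 point for each of the 16 arrays. Young SNI replicate 2 lies apart at 9.35 for the central nervous tissue genes, and the adult arrays numbered 2, at Hcn2 of 7.40 to 7.70, lie at the low end of the muscle genes among adults.

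The genes around the current were taken from 6 lists written from general knowledge, with 88 genes measured and 44 of them at a mean of 4 or more. By limma 0 of the 88 passed in any comparison of SNI with a control, where 7 to 16 had an unadjusted p under 0.05. In adult SNI that was 7.95% of the 88 against the sham group and 11.4% against contralateral, beside 7.33% and 9.83% of all Affy_IDs, and in young SNI, with replicate 2 included, 9.09% against sham and 18.2% against contralateral, beside 5.91% and 5.94%. Between adult and young controls 3 passed, all higher in adults, which is 3.41% of the 88 beside 4.36% of all Affy_IDs. In the lists below, the genes with a mean under 4 lie low on the arrays, and their directions carry little information.

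Of 14 partners and regulators of channel density (9 with a mean of 4 or more), 5 were higher and 9 lower in adult SNI than in the mean of both controls, and the median difference was -0.03, as over all Affy_IDs (-0.03). Src, a tyrosine kinase that phosphorylates HCN channels, had 0.56 (limma adjusted p = 0.138), and Cav1, the caveolin of membrane rafts, had 0.49 (0.576). Pex5l, the TRIP8b subunit that traffics HCN channels, had -0.31 (0.717). None of these passed.

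Cyclic AMP is made by adenylyl cyclases, which Gs-coupled receptors drive and Gi-coupled receptors hold down. Of 16 genes of cyclic nucleotide supply (11 with a mean of 4 or more), 6 were higher and 10 lower in adult SNI, with a median of -0.03. Adcy3, an adenylyl cyclase, was higher in adult than in young controls, by 0.96 (SE 0.20, limma adjusted p = 0.0255). It had 8.46, 8.16 and 7.77 in adult contralateral and 8.61, 8.20 and 7.99 in adult sham, against 7.18 and 7.35 in young contralateral and 7.08, 7.79 and 6.79 in young sham. One young sham array (7.79) lay above the lowest adult control (7.77), and the call was lost in 6 of the fits that left out 1 array (adjusted p up to 0.117).

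Adcy5, another adenylyl cyclase, was lower in adult SNI than in young SNI, with a log2 difference of -1.10 (SE 0.26, limma adjusted p = 0.0488). It had 3.54, 2.88 and 3.00 in adult SNI, against 4.02 and 4.46 in young SNI. Of 22 alternatives 16 lost this call, among them the fit without young SNI replicate 2 (-0.88, adjusted p = 0.349) and the block (adjusted p = 0.118). All of these values lie low on the array, and 1 of the 2 Affy_IDs of Adcy5, the one shown here, passed.

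Of 11 Gs-coupled receptors (3 with a mean of 4 or more), 2 were higher and 9 lower in adult SNI, with a median of -0.05. Htr7, a serotonin receptor, was higher in adult than in young controls, by 1.12 (SE 0.26, limma adjusted p = 0.0365). Htr7 has 3 Affy_IDs, of which 1, the one shown here, passed. It had 5.89, 6.03 and 5.92 in adult contralateral and 5.73, 6.06 and 5.59 in adult sham, against 4.75 and 4.69 in young contralateral and 4.87, 4.65 and 4.83 in young sham. The ages did not overlap, an order that 3.54% of all Affy_IDs showed. Of 22 alternatives 11 lost the call, with the block among them (adjusted p = 0.0768). After injury in adults Htr7 had 5.17, 5.37 and 3.93. The Htr7 difference from the mean of both controls was -1.05 (limma adjusted p = 0.165) and did not pass. The same adult controls enter both Htr7 differences.

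Of 19 Gi-coupled receptors (10 with a mean of 4 or more), 4 were higher and 15 lower in adult SNI. Their median was -0.13, beside -0.03 over all Affy_IDs. Adra2c and Oprk1, an adrenergic and an opioid receptor, had -1.50 and -0.59 (limma adjusted p = 0.146 and 0.264). Oprl1, the nociceptin receptor, was higher in adult than in young controls, by 0.83 (SE 0.14, limma adjusted p = 0.0107), and in adult than in young sham, by 1.07 (SE 0.19, limma adjusted p = 0.0311). It had 8.86, 8.66 and 8.33 in adult contralateral and 9.34, 8.69 and 8.64 in adult sham, against 7.92 and 8.16 in young contralateral and 7.96, 7.75 and 7.74 in young sham. The ages did not overlap, an order that 3.54% of all Affy_IDs showed. The difference between controls passed in 21 of 22 alternatives, the exception being the fit without young contralateral replicate 1 (adjusted p = 0.0638). The difference between sham groups was lost in 6. In each of these comparisons 1 of the 3 Affy_IDs of Oprl1 passed, the one shown here.

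Of 13 relatives that share a cyclic nucleotide-binding homology domain (3 with a mean of 4 or more), 3 were higher and 10 lower in adult SNI, with a median of -0.03. Kcnh2, the ERG potassium channel, came nearest to the threshold of all 88 genes in that comparison, with -0.71 (SE 0.16, limma adjusted p = 0.0589). Of 15 genes for currents that work below the firing threshold (8 with a mean of 4 or more), 2 were higher and 13 lower. Their median was -0.17, beside -0.03 over all Affy_IDs. In the same comparison the median was -0.20 for the 8 sensory neuron genes, -0.35 for the 10 genes of large myelinated neurons and -0.26 for the 8 nociceptor genes. Kcnk1, a leak potassium channel, had -0.50, and Scn1a, a sodium channel of large neurons, had -0.37 (limma adjusted p = 0.54 and 0.695). In young SNI the smallest limma adjusted p over all 88 genes was 0.626 against the mean of both controls, with replicate 2 included.

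**Figure D4:**
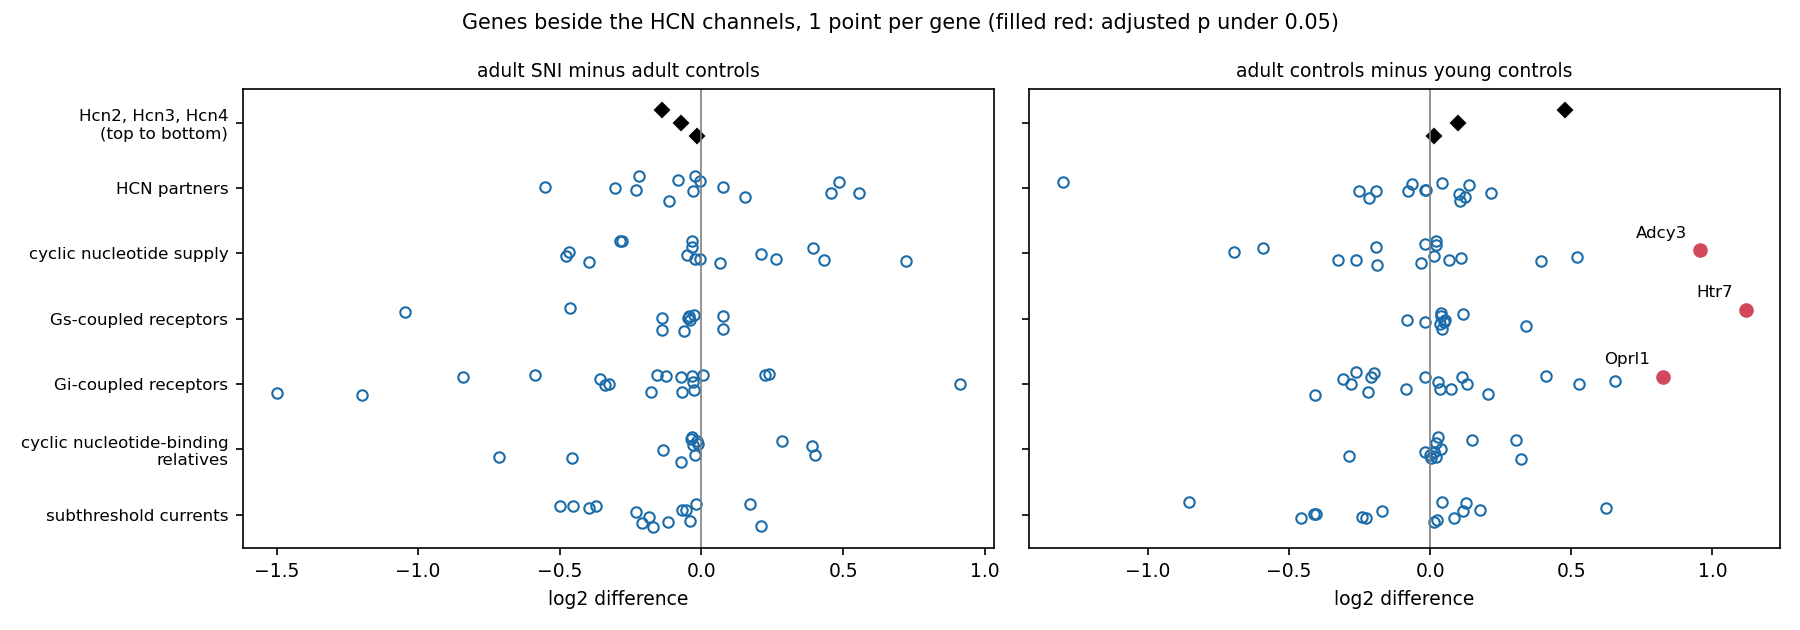
Log2 difference (horizontal axes) of each measured gene of the 6 lists (rows) and of the 3 HCN genes, in adult SNI against the mean of both adult controls (left) and in adult against young controls (right). Circles are list genes, diamonds the HCN genes and filled red circles the genes that passed limma, which were Adcy3, Htr7 and Oprl1 on the right and none on the left.

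Likeness was measured as Pearson's r over the 16 arrays with 11508 Affy_IDs of 1 symbol and a mean of 6 or more, and is given with no test, since arrays share age, surgery and tissue content. For Hcn2 the highest r was found for Mapre3 (0.81), Lars1 (0.79), Flywch1 (0.77), Btbd9 (0.77) and Rundc3b (0.76). Without young SNI replicate 2 the first 5 were others, led by Cdk5 (0.92), Mrpl14 (0.91) and Rell2 (0.91), so the ranking for Hcn2 rests on that array. For Hcn3 Polr1h (0.89) and Pear1 (0.88) led. The spread of Hcn3 came mainly from the 3 arrays at 4 or more, and the ranking without them was not computed. Hcn4 varied by 0.08 in all, at the floor, and its likeness is not given. Among the members, Hcn2 had an r of -0.08 with Hcn3 over the 16 arrays.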

How the data were processed

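RNA from L4/L5 DRG pools was hybridised to 16 Affymetrix rat genome arrays. The authors applied GC-RMA to give the deposited log2 values, and removed 2 arrays as outliers (not analysed here). The sources used here give no version of GC-RMA or limma and no genome build. Arrays give no counts, so the number of pools limits precision. Nothing states whether pools shared litters.

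With limma 3.58.1 in R 4.3.3, all 16 arrays entered 1 model with 6 group means (no filter, 10 residual and 1.24 prior degrees of freedom). Control Affy_IDs (57) were dropped, the other 31042 tested, and Benjamini-Hochberg adjustment was made within each of 15 comparisons, with a threshold of 0.05. Of these, 20826 had 1 gene symbol, 436 had several and 9780 had none. Where a list gene had several Affy_IDs, the one of highest mean stood for it. The fit was tested on simulated data.

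The members, lists and alternatives were chosen with earlier results of these data known. Named genes were the members, list genes that passed (up to 6 per list), otherwise up to 2 with the smallest p, and the 5 most alike. Pex5l was named beyond this rule, as a known partner of the channel, after its values were seen. The array numbers come from the labels. Same-numbered arrays of the 2 adult SNI sides deviated together from their group means (r = 0.449, 0.445 and 0.362 across Affy_IDs). They were taken as pairs in the fit with the array number as a block, while the main model left them unpaired.

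Alternatives were an intensity trend, a robust prior, each age fitted alone, a filter (log2 of 4 or more in at least 2 arrays), array weights, quantile normalization, the array number as a block, joint adjustment of p over every SNI comparison, and leaving out each array. Promoters are RefSeq's, of build GRCr8. Python 3.11.15 with pandas 2.3.3 and matplotlib 3.10.9 made tables and figures.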

Additional observations from a re-analysis of the deposited data

How the results depend on the processing

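Over 1017 alternative values of the 3 HCN genes 0 passed, and the smallest adjusted p were 0.0684 for Hcn2, 0.606 for Hcn3 and 0.522 for Hcn4. Each of these smallest p was found in adult against young controls, that of Hcn2 in the fit without adult SNI replicate 2. The sign differed in 51 of the 1017 values (13 for Hcn2, 21 for Hcn3 and 17 for Hcn4), all for differences that did not pass. The filter removed Hcn4 and kept Hcn2 and Hcn3. Leaving out 1 array moved Hcn2 in adult SNI between -0.51 and 0.02 against sham and between -0.42 and 0.11 against contralateral, in young SNI between 0.03 and 0.56 against sham and between 0.01 and 0.54 against contralateral, and in adult against young controls between 0.40 and 0.53. Hcn3 moved in adult SNI between -0.45 and 0.11 against sham and between -0.06 and 0.20 against contralateral, and in young SNI between -0.36 and -0.07 against sham and between -0.10 and -0.01 against contralateral.

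With the replicate number as a block 0 HCN genes passed. The count over all Affy_IDs was then 98 instead of 149 in adult SNI against sham, 169 instead of 321 against contralateral and 500 instead of 821 in adult against young SNI. Array weights gave 827 against contralateral and 88 in adult against young SNI. Leaving out 1 array gave 35 to 288 against adult sham, 57 to 580 against adult contralateral, 243 to 5297 in adult against young SNI, 308 to 2057 in adult against young controls, 3 to 3405 against young sham instead of 5, and, for the response between ages, 11 to 2448 against sham instead of 24, 3 to 2337 against contralateral instead of 6 and 12 to 3093 against the mean of both instead of 30. The highest counts in the comparisons with young SNI, and in adult against young controls, came from the fit without young SNI replicate 1. Young SNI replicate 2, the array with the high central nervous tissue genes, was then alone in its group. The part of its tissue in these counts was not tested. The replicate number was fitted within each age. The block covered every group, sham and young arrays included, though only the adult SNI sides were taken as pairs. For sham and young arrays the number has no such basis, and block values that rest on them carry that limit. With 2 or 3 pools a group the 95% intervals of Hcn2 and Hcn3 were wide, and Hcn4 lay at the floor.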
